A study of Mus musculus with 6 samples.

Results

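Mouse chromosome 8 was described in 50 kb bins of Hi-C subcompartments and in chromatin loops. All 2517 bins of the chromosome that carried a label in all 6 libraries were taken, out of 47717 such bins on the 19 autosomes (5.27%), while 8 further bins lacked a label in at least 1 library. The bins span 125.85 Mb between positions 3050001 and 129300000. All loops of the chromosome were taken from 3 lists, 272 of 5903 for control, 275 of 6013 for Brg1KD and 260 of 5475 for Ino80KD. The chromosome had been chosen by measured values, the ranks of Brg1KD against control, whose shifts here went almost only towards B, so all values of that contrast on the chromosome, limma counts included, are descriptions and support nothing.

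Hi-C, which joins and sequences DNA pieces that lie near each other in the nucleus, was carried out on E14TG2a cells, a wild-type line of male mouse embryonic stem cells. Cells were transfected by lipofection with esiRNA, short interfering RNA cut from long double strands, against the EGFP reporter (control), Smarca4 (Brg1KD) or Ino80 (Ino80KD), and harvested after 48 h. Each group has 2 libraries, and the replicate number is the batch, so that each batch number in the labels holds 1 library of every group. What a batch stands for is not stated. Nothing states that the replicates were separate cultures, so the spread between them may be technical. The knockdown was transient, in 1 cell line, and Hi-C gives no transcript level, so how far Smarca4 and Ino80 fell was not measured.

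Chromosomes fold into an A compartment, which is rich in genes and active chromatin, and a B compartment, which is poor in both and often lies at the nuclear edge. Subcompartments divide each further, here into 8 classes with ranks from 1 (B.2.2, the most B-like) through 4 (B.1.1) and 5 (A.2.2) to 8 (A.1.1, the most A-like). Smarca4 encodes Brg1, the ATPase of the esBAF complex, which slides and evicts nucleosomes at enhancers of embryonic stem cells. Ino80 is the ATPase of a different remodelling complex that spaces nucleosomes near gene starts. Loops are pairs of distant sites in frequent contact, often held by cohesin between CTCF sites or joining enhancers and promoters.

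Of 157 genes in the lists examined on the chromosome, 97 had a start in the RefSeq promoter table. The 6 promoters below belong to the first 6, in order of position, whose start lay in the anchor of a loop that differed between the 3 lists, even when both anchors were allowed to lie 20 kb apart, and not inside another gene. They are shown because loops at these starts are described below. Each is the 250 bases before the listed start, 5′ to 3′ on the strand of the gene, in RefSeq GRCm38.p6. For Nfix that start, 84775828, lies inside the gene, whose 5′ end is at 84801238. Capitals mark the GC box GGGCGG and the CCAAT box CCAAT, searched on both strands, which do not overlap.
Irs2: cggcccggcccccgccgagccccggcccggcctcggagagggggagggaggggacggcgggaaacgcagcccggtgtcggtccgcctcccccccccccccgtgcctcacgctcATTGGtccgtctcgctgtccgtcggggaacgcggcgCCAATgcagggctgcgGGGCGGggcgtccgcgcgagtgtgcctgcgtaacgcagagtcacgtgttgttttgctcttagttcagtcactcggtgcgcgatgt
Sox1: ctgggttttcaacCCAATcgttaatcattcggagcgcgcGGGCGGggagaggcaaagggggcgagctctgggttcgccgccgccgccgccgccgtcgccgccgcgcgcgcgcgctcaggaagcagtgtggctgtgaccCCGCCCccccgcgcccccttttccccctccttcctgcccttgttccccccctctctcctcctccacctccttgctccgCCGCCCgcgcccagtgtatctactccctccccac
Nfix: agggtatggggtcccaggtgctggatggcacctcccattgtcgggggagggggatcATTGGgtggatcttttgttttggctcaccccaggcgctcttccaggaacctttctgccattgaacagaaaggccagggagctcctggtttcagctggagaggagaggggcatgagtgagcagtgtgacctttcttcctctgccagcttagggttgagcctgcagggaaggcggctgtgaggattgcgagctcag
Sall1: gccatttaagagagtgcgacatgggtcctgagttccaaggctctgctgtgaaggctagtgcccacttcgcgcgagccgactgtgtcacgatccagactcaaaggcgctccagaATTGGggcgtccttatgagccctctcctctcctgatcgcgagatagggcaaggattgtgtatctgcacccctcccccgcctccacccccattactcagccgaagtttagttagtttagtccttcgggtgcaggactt
Irx3: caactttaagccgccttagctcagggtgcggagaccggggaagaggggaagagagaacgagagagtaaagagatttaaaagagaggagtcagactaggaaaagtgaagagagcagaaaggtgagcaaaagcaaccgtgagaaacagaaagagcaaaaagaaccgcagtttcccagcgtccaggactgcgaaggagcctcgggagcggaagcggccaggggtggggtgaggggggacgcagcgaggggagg
Ces4a: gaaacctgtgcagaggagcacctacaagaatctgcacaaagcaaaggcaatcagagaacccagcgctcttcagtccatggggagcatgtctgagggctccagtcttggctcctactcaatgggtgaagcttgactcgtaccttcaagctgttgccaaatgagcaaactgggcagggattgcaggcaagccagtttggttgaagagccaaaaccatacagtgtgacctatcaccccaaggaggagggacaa

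These windows lie at chr8:11008930-11009179 (Irs2, minus strand), chr8:12395269-12395518 (Sox1, plus strand), chr8:84775829-84776078 (Nfix, minus strand), chr8:89044163-89044412 (Sall1, minus strand), chr8:91801655-91801904 (Irx3, minus strand) and chr8:105131550-105131799 (Ces4a, plus strand). Irs2 encodes an adaptor of insulin signalling. Its window had 72.8% GC, 34 CpG dinucleotides, 1 GC box and 2 CCAAT boxes. Sox1 encodes a transcription factor of early neural cells. Its window had 71.2% GC, 29 CpG, 3 GC boxes and 1 CCAAT box. Nfix, Sall1, Irx3 and Ces4a held no GC box, at 58.4%, 56.4%, 56% and 52% GC, and Nfix and Sall1 held 1 CCAAT box each. Over all 16457 windows of the table, 43.6% held a GC box and 36.2% a CCAAT box, with a median of 55.6% GC and 10 CpG. Ces4a, with 2 CpG, lay furthest below that median among the 6.

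Chromosome 8 was near the genome average in control and lower in rank in both knockdowns. Its mean rank was 4.04 and 4.00 in the control libraries, 3.87 and 3.82 in Brg1KD and 3.98 and 3.90 in Ino80KD. Each knockdown library thus lay below each control library, and both Brg1KD libraries lay below both Ino80KD libraries. The difference from control was -0.178 classes in Brg1KD (-0.174 in batch 1 and -0.181 in batch 2) and -0.0805 in Ino80KD (-0.0636 and -0.0973). On the other autosomes it was -0.0795 and -0.0773. The Brg1KD difference was therefore larger on chromosome 8 than elsewhere, as the choice of the chromosome implies, while the Ino80KD difference was close to that of the other autosomes. An exact two-sided permutation test of the Ino80KD libraries against control gave p = 0.333, the smallest that 2 against 2 libraries allow. Between the knockdowns, Brg1KD minus Ino80KD was -0.0973 on chromosome 8 and -0.00227 on the other autosomes. These 3 comparisons share libraries, so they are not independent.

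The share of the chromosome in A was 42.0% and 38.9% in control, 37.5% and 36.2% in Brg1KD and 38.2% and 38% in Ino80KD. The means were 40.5% ± 2.19 (SD, n = 2), 36.9% ± 0.927 and 38.1% ± 0.140. The control libraries differed from each other by more than the Ino80KD libraries differed from the lower of them. For Ino80KD against control the exact permutation p was 0.333 and the difference -2.36 percentage points. The most B-like class, B.2.2, covered 23.1% and 23.4% in control, 26.7% and 28.6% in Brg1KD and 23.1% and 26.8% in Ino80KD. Brg1KD replicates were both above both controls, whereas Ino80KD replicate 1 was level with control and replicate 2 was not. A.1.1, the most A-like class, covered 13.7% and 17.9% in control against 14.7% and 16.6% in Brg1KD, so these groups overlapped.

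**Figure D1:**
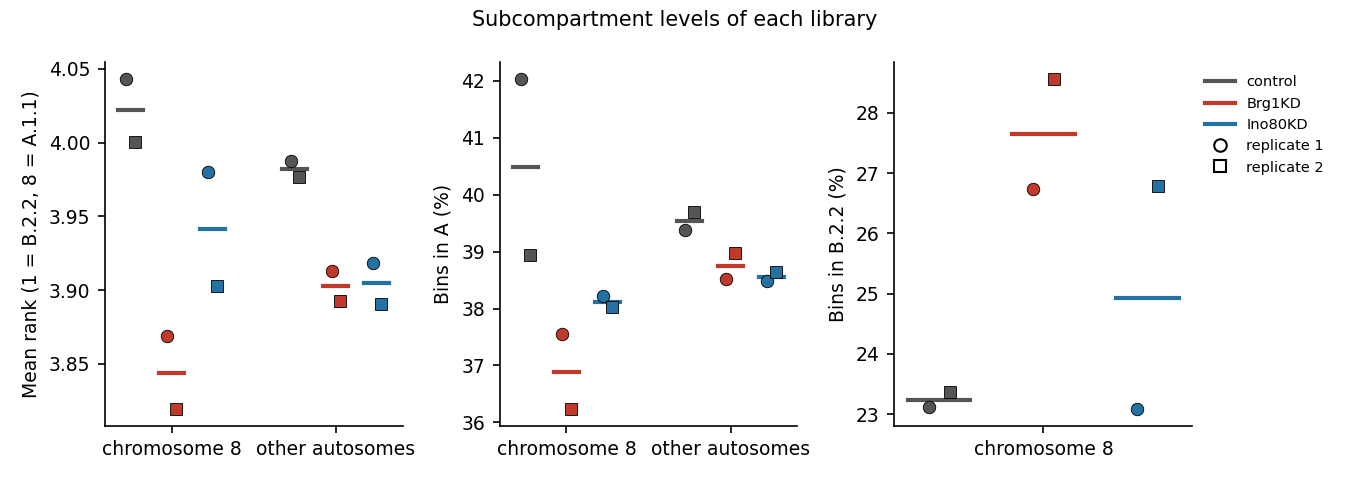
Points are single libraries (circle, replicate 1; square, replicate 2) and bars are group means, for the mean rank in classes, the share of 50 kb bins in A and the share in B.2.2 in percent; axes do not start at 0. The Brg1KD libraries, at 3.87 and 3.82, lie below the Ino80KD libraries in mean rank on chromosome 8 and beside them on the other autosomes.

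Labels moved by small steps. Control libraries gave 68.7% of chromosome 8 bins the same label and 97.6% within 1 class. The Brg1KD pair shared 66.0% and the Ino80KD pair 68.1%, while pairs from different groups shared 56.9% to 71.5%, the highest being control replicate 2 and Ino80KD replicate 2. Label agreement therefore did not set the groups apart, and 800 bins (31.8%) had 1 label in all 6 libraries. A bin was counted as apart between a pair of groups when their ranks did not overlap. In Brg1KD 230 bins (9.14%) were apart towards B and 33 (1.31%) towards A, where 7.19% and 3.13% of all autosomal bins were. Of these 230 bins, 127 stayed within B, 53 within A and 40 crossed from A in both controls to B in both Brg1KD libraries. Such crossing took 1.00% of autosomal bins, and the reverse, which took 0.451% of autosomal bins, was seen in 2 bins of the chromosome. Of the 230, 178 moved by 1 class or less and 54 ended in B.2.2 in both libraries. The rule chose the chromosome by this contrast, so nothing is read from these counts. With a gap of at least 2 classes between the groups 27 bins remained apart, 18 towards B and 9 towards A, a less one-sided split (66.7% towards B).

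In Ino80KD 133 bins (5.28%) were apart towards B and 39 (1.55%) towards A. Over all autosomes 4.50% and 1.76% were, so chromosome 8 was near that background. From A to B crossed 19 bins and from B to A 4, where 0.616% and 0.161% of autosomal bins did. Between the knockdowns, 196 bins were lower in Brg1KD and 64 were higher, where 4.63% and 4.24% of autosomal bins were. Of these, 24 were in A in Ino80KD and in B in Brg1KD and 8 the reverse, as were 0.608% and 0.706% of autosomal bins. This last comparison shares the Brg1KD libraries with the choice of the chromosome and is a description.

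Limma was run with Benjamini-Hochberg adjustment over all 47717 bins, at a threshold of 0.05. In Brg1KD it called 134 bins of the chromosome (5.32%) towards B and 10 (0.397%) towards A, where 3.30% and 1.53% of all autosomal bins were. The direction of these calls was fixed by the choice of the chromosome, and nothing is read from them. In Ino80KD it called 60 (2.38%) and 9 (0.358%), where 2.37% and 0.855% of autosomal bins were. Between the knockdowns it called 89 (3.54%) lower and 17 (0.675%) higher in Brg1KD than in Ino80KD, where 2.14% and 1.82% were. Its p-values were not calibrated on these ranks, because 957 bins of the chromosome had no spread within any group and a step of 1 class there was always called. With 1 variance for all bins it called 61 and 25 bins in Brg1KD, 10 and 7 in Ino80KD and 11 and 9 between the knockdowns. The smallest shift called on any autosome was then 1.5 classes in Brg1KD and 2 in the other comparisons. That fit thus never called a step of 1 class, and its counts describe larger steps only. Adjacent bins belong to the same deposited segment, with a median segment of 350 kb in every library, so bins are not independent. The regions named below were taken for their shifts in these same libraries, so calls within them are descriptions too.

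The place of chromosome 8 among the autosomes in Brg1KD restates how it was chosen and is given as a description. Of its bins apart in Brg1KD, 87.5% were towards B, followed by 87.0% on chromosome 19, and chromosome 5 had 79.1%. In Ino80KD the same share was 77.3% on chromosome 8, 97.8% on chromosome 19 and 93.8% on chromosome 5. By mean shift chromosome 8 ranked 1 of 19 towards B in Brg1KD and 9 of 19 in Ino80KD.

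The difference in Brg1KD was spread over the whole chromosome. All 13 windows of 10 Mb had a mean shift below 0 in Brg1KD, 11 of them in both batches, and in 10 of them both libraries lay below both controls. The largest differences were in the windows from 10 to 20 Mb (-0.318), from 30 to 40 Mb (-0.303) and from 60 to 70 Mb (-0.27). The last held 42 of the 230 bins apart towards B. The smallest were from 100 to 110 Mb (-0.085) and from 50 to 60 Mb (-0.045). The latter window stood at a mean rank of 1.77 and 1.71 in control, close to the lowest rank of 1. Both windows, and that from 0 to 10 Mb (-0.0863), were near or above the mean of the other autosomes. In Ino80KD 9 windows were below 0, 3 above and 1 at 0. Between 80 and 90 Mb Ino80KD stood at 4.93 and 4.92 and control at 4.81 and 4.97, which overlap, while Brg1KD stood at 4.65 and 4.79, below all of them.

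**Figure D2:**
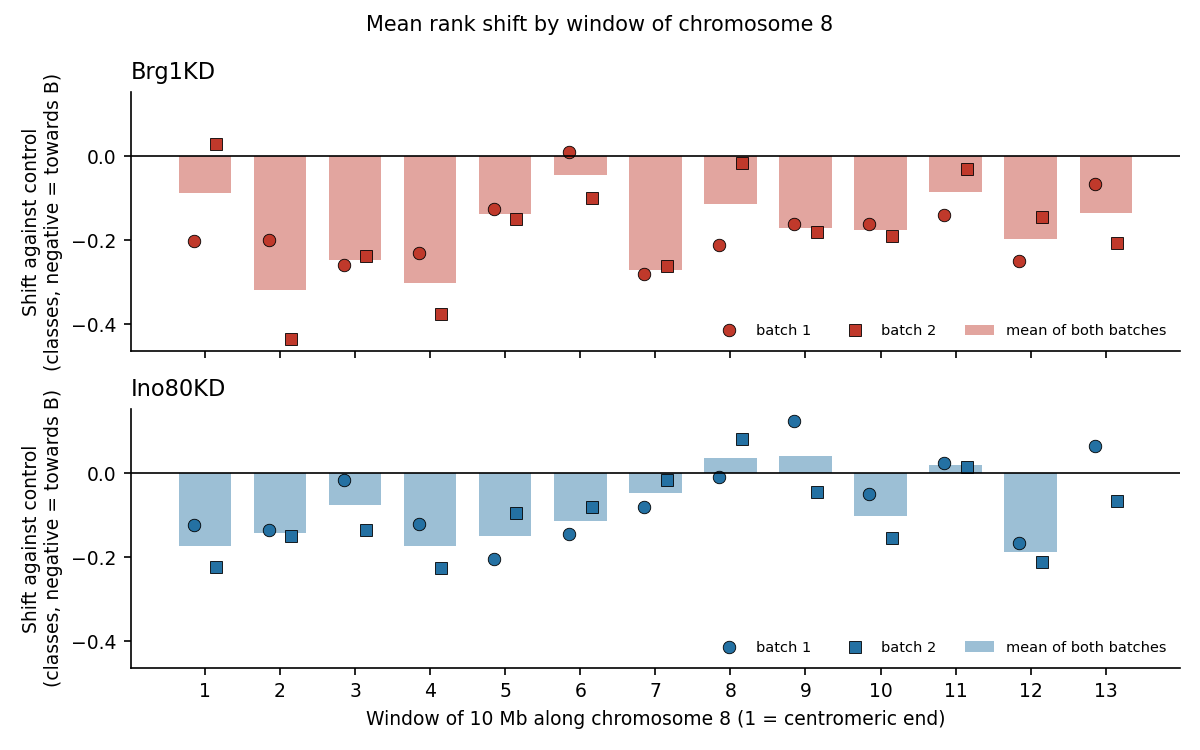
Bars give the mean rank shift against control in classes for each of 13 windows of 10 Mb, negative towards B, and points give each batch on its own. All 13 bars of Brg1KD lie below 0, whereas Ino80KD has 9 below 0 and 3 above.

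In Brg1KD, the contrast that chose the chromosome, the classes next to the A/B border had the highest share of their own bins apart towards B. Bins of B.2.2 cannot move further towards B, nor bins of A.1.1 further towards A. Among bins with 1 label in both controls, 45 of 120 bins of B.1.1 (37.5%) and 32 of 103 bins of A.2.2 (31.1%) were apart towards B in Brg1KD, against 18.8% and 16.1% on the other autosomes. Of A.1.1 bins only 12 of 331 (3.63%) were, where 3.97% were elsewhere. Bins of A.2.1 were apart in both directions in Brg1KD, 25.4% towards B and 9.65% towards A. In Ino80KD the share towards B was highest in A.2.1, at 29 of 114 bins (25.4%), and 11.3% elsewhere. Next to the border, A.2.2 had 16.5% (12.2% elsewhere) and B.1.1 had 10% (11.5% elsewhere), while B.2.1 had 11.6%. The bins apart towards B in Brg1KD were poor in genes, at 4.87 protein-coding genes per Mb against 8.27 on the whole chromosome, and 79.1% of them held no gene midpoint against 71.8%. Those apart towards A in Brg1KD held 9.70 per Mb, above the chromosome. In Ino80KD those towards B held 3.31 and those towards A 3.08 per Mb, and bins with 1 label in all 6 libraries held 13. Gene density was not used to choose the chromosome, but the bins apart in Brg1KD were picked by the ranks that were. The density of bins apart on the other autosomes is not given, so these densities are descriptions. By gene midpoint, 56 of 1041 placed genes (5.38%) lay in bins apart towards B in Brg1KD and 16 (1.54%) in bins apart towards A, against 4.34% and 3.29% of all 20375 autosomal genes. In Ino80KD these were 22 (2.11%) and 6 (0.576%), against 2.86% and 1.97%. The counts of the gene lists below are read against these shares.

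**Figure D3:**
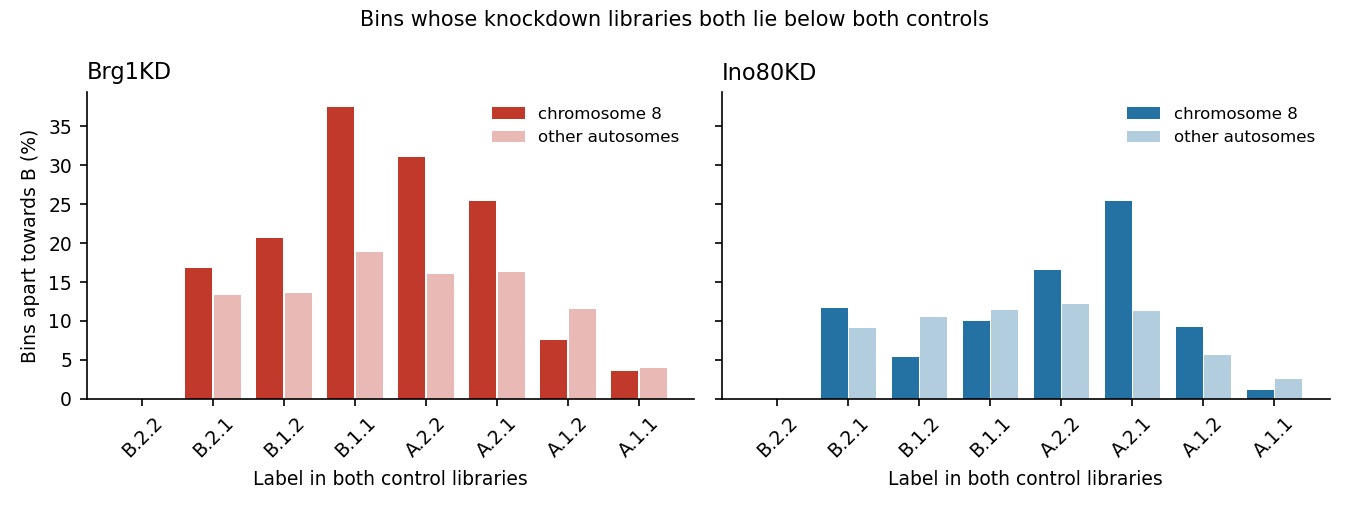
Bars give the percentage of 50 kb bins apart towards B, by the label that both control libraries shared, for chromosome 8 (dark) and the other autosomes (light). In Brg1KD the bars of chromosome 8 peak at B.1.1 (37.5%) and fall to 3.63% at A.1.1.

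The bins apart towards B in Brg1KD formed 44 regions of adjacent bins with a median of 250 kb, 11.5 Mb in all, and those towards A formed 15. The region with the largest summed shift was chr8:61200001-62050000, 850 kb. It holds Sh3rf1 (a ubiquitin ligase and scaffold of JNK signalling), Cbr4 (a carbonyl reductase), Palld (palladin, which binds actin) and Ddx60 (a helicase of the antiviral response). Its mean rank was 4.71 and 4.59 in control, 3.41 in both Brg1KD libraries, and 4.06 and 4.29 in Ino80KD. The proximal bins, over Sh3rf1, were A.2.1 in control and A.2.2 in Brg1KD, and most distal bins were B.1.2 and B.2.1. Ino80KD lay between the other groups. A loop of 1000 kb from the start of Aadat, an aminotransferase of tryptophan and lysine breakdown, into this region was in the control and Ino80KD lists and had no match within 20 kb in Brg1KD. A loop of 540 kb from 60970001 to 61520000, with its far anchor in the region, was in Brg1KD alone, and each list had 7 loops anchored there.

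A region without a gene midpoint, chr8:51750001-52500000, stood at 2.40 and 2.27 in control and at 1, B.2.2 throughout, in both Brg1KD libraries. Ino80KD stood at 1.4 and 1 there, so both knockdowns were below control. At chr8:125050001-125750000 lie Disc1 (a scaffold protein of developing neurons), Sipa1l2 (an activator of Rap GTPase hydrolysis), Map10 (a microtubule-associated protein) and Ntpcr (a nucleotide phosphatase). This region stood at 6.50 in both controls, 5.43 and 5 in Brg1KD, and 6 and 7 in Ino80KD, so Ino80KD straddled control.

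At chr8:82750001-83100000, with Zfp330 (a zinc finger protein) and Rnf150 (a RING finger protein), all bins went from B.1.1 in both controls to B.2.1 in both Brg1KD libraries, a fall of 2 classes. Ino80KD was B.1.2 in replicate 1 and B.1.1 in replicate 2. The region chr8:64300001-64600000, without a gene midpoint, fell further, from 5 and 4 in control to 2 and 2.67 in Brg1KD, with 4 in both Ino80KD libraries. At chr8:24000001-24600000 lie Tcim (a regulator of transcription and immune response) and Ido2 and Ido1 (dioxygenases that break down tryptophan). Control stood at 5.42 in both libraries, Brg1KD at 4.33 in both and Ino80KD at 4.83 and 4.67.

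The region chr8:92650001-93100000 holds 7 genes, among them Irx6 (an Iroquois homeobox factor), Mmp2 (a gelatinase of the extracellular matrix), Lpcat2 (an enzyme of phospholipid remodelling) and Capns2 (a calpain subunit). It stood at 4.44 and 4.33 in control, 3 and 3.33 in Brg1KD, and 4.33 and 4.44 in Ino80KD. Ino80KD was thus level with control and Brg1KD below both. Of its 9 bins 5 were called by limma between the knockdowns. Cldn23 (a tight-junction claudin), Prag1 (a pseudokinase) and Lonrf1 (a RING finger protein) share chr8:35800001-36250000, at 5.89 and 5.67 in control, 4.67 in both Brg1KD libraries and 5.67 in both Ino80KD libraries. At chr8:28300001-28800000, which holds no gene midpoint, both controls were 2 and both Brg1KD libraries 1, with 2.3 and 1.7 in Ino80KD.

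Towards A in Brg1KD the largest summed shift was at chr8:75150001-75550000, with Rasd2 (Rhes, a small GTPase of the striatum). Both controls were B.2.2 throughout. Brg1KD stood at 3 and 2.75 and Ino80KD at 3 and 2, so every knockdown library was above control. In Ino80KD the same stretch extended to 75700000 and again held the largest sum of shifts towards A. The comparisons share their controls. At chr8:69400001-69750000, which holds 6 genes including the zinc finger genes Zfp868 and Zfp964, all libraries of control and Ino80KD were A.2.1 and both of Brg1KD were A.1.2. The bins before it, at A.1.1 in control and Ino80KD, were also A.1.2 in Brg1KD, so the border between these labels was gone there. Loops with an anchor in the region numbered 2 in each knockdown list and 0 in control. Cfap97, Slc25a4 (the mitochondrial ADP/ATP carrier) and Helt (a neuronal bHLH factor) at chr8:46150001-46300000 made the same step in Brg1KD, to A.1.2 in each library, and Ino80KD was A.2.1 like control. The bin of Zfp703, a zinc finger repressor, stood at 5 and 4 in control, 8 in both Brg1KD libraries, and 8 and 5 in Ino80KD. This is 1 bin at a border between labels, and the next bin was 8 in all 6 libraries. Il15, a cytokine of natural killer cells, lies at chr8:82350001-82550000, which was B.2.2 in both controls, B.2.1 in both Brg1KD libraries and 1 of each in Ino80KD.

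**Figure D4:**
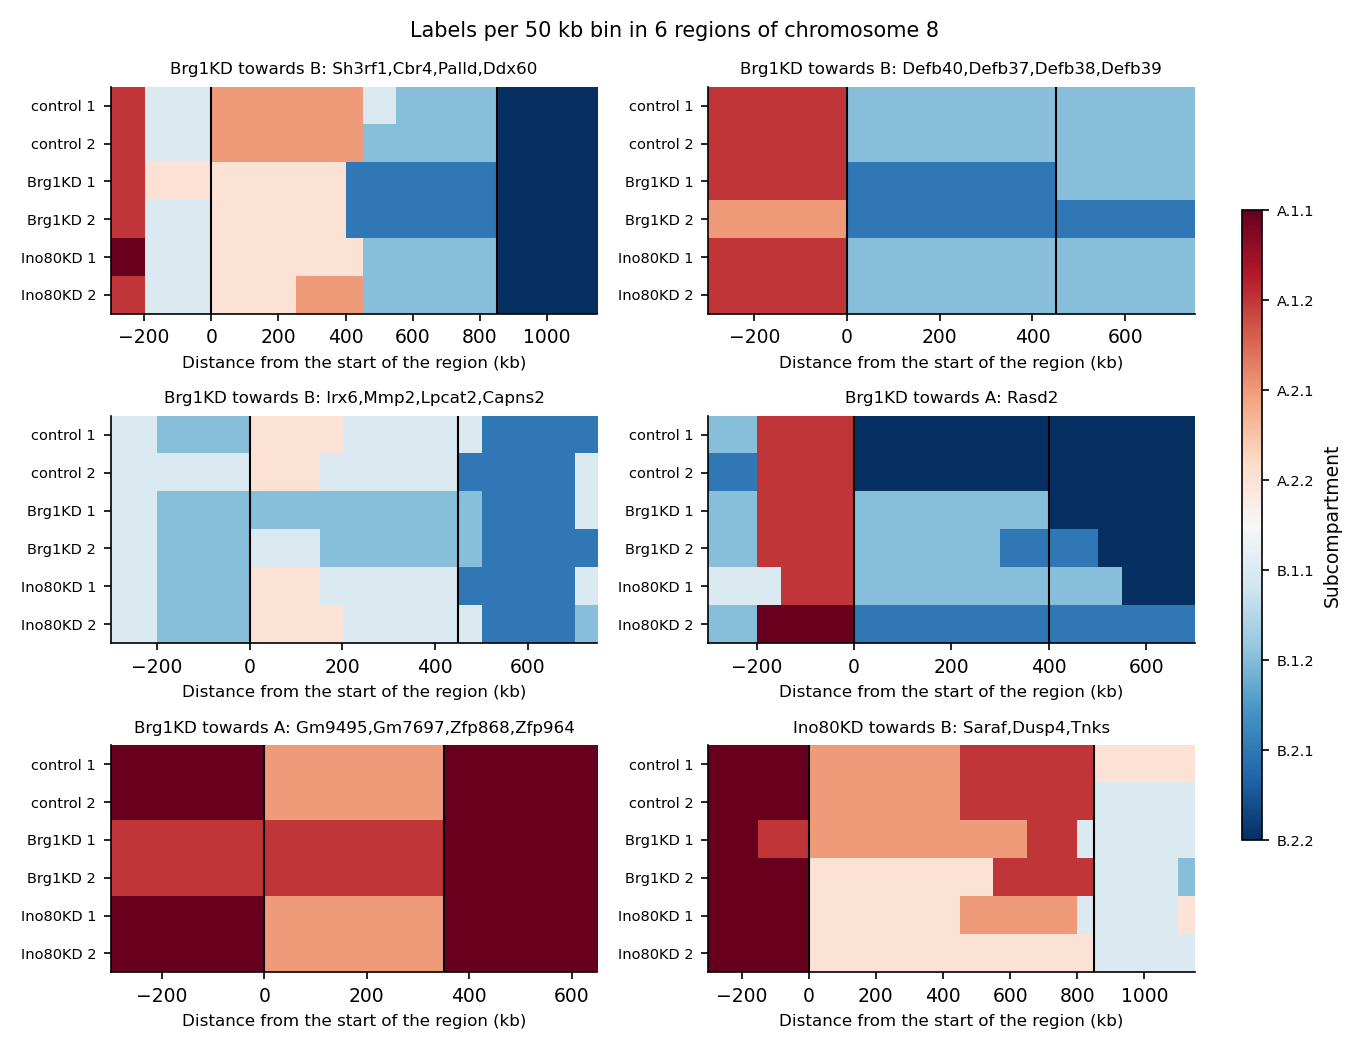
Each panel shows the label of every 50 kb bin (colour, from B.2.2 in blue to A.1.1 in red) in the 6 libraries, by distance from the start of a region in kb; black lines mark the region. In the defensin panel both Brg1KD libraries are B.2.1 and the other 4 are B.1.2 across the region; in the Sh3rf1 and Saraf panels borders between labels also lie at different places.

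In Ino80KD the bins apart towards B formed 25 regions and those towards A 14. The largest sum of shifts towards B was at chr8:34150001-35000000, with Saraf (a brake on store-operated calcium entry), Dusp4 (a MAP kinase phosphatase) and Tnks (tankyrase). It stood at 6.47 in both controls, 5.35 and 5 in Ino80KD, and 6.06 and 5.71 in Brg1KD, so all knockdown libraries were lower and Ino80KD lowest. At chr8:78850001-79400000 lie Zfp827, Mmaa (of vitamin B12 metabolism) and Smad1 (the BMP signal transducer), at 7 and 6.73 in control, 5.73 in both Ino80KD libraries, and 6.64 and 6 in Brg1KD. The region chr8:11850001-12350000, next to Sox1, went from A.2.1 in both controls to A.2.2 in both Ino80KD libraries, and Brg1KD had 1 library at each label. Limma called no bin of the first and last of these regions and 1 of the 11 bins of the middle region. Frg1, named for the facioscapulohumeral dystrophy region, lay in a single bin at 2 and 2 in control, 2 and 3 in Brg1KD and 7 and 8 in Ino80KD. That bin was called by limma against control (adjusted p = 0.0397) and between the knockdowns (adjusted p = 0.0443), the largest step among the named regions, and it is 1 bin. Stretches without a gene midpoint at chr8:65150001-65350000 (4 and 3 in control, 1 and 2 in Ino80KD) and chr8:8200001-8450000 (3 and 2, against 1 and 1) also lay lower in Ino80KD. Those at chr8:63450001-63700000 and chr8:81000001-81250000 rose from 1 in both controls to 2 in both Ino80KD libraries, and limma called all 5 bins of the former and none of the latter.

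The chromatin and chromosome genes all lay in A, where most genes of the chromosome lie (775 of 1041 in all 6 libraries). All 17 on the list were in A in all 6 libraries, 12 of them in A.1.1, and none was in a bin apart in either comparison with control, a count that at 5.38% of genes towards B does not set the list apart. Among them Ctcf (which anchors loops), Brd7 (a subunit of a BAF-family complex) and Chd9 (a chromodomain helicase) were A.1.1 in every library, and Smarca5 (the ISWI ATPase) was 7 or 8. Of 4 pluripotency and epithelial genes none was apart. Zfp42 (Rex1) was A.1.2 and Klf2 A.1.1 in all 6 libraries. The 4 metallothionein genes, which bind metal ions, were A.1.1 throughout. Over all 1041 genes of the chromosome 520 lay in bins with 1 label in all libraries and the median shift was 0 in both knockdowns.

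Of 16 lineage regulators 1 was apart towards B in Brg1KD and none towards A, and 1 towards A and none towards B in Ino80KD. Of all genes of the chromosome 5.38% were apart towards B in Brg1KD, and 1 of 16 is near that share. Towards A in Ino80KD 0.576% of them were, and 1.97% of all autosomal genes, so 1 of 16 is above both. It is 1 gene, and nothing is read from it. The gene in Brg1KD was Irx6, at 5 and 5 in control, 3 and 4 in Brg1KD, and 5 and 5 in Ino80KD. The gene in Ino80KD was Sox1, at 6 and 6 in control, 8 and 8 in Ino80KD, and 6 and 7 in Brg1KD. Sox1 was thus higher in both Ino80KD libraries than in all others, and its bin was not called by limma (adjusted p = 0.318 against control). It is 1 bin at a border between labels. The bin before it stood at 6 and 6 in control and 5 and 5 in Ino80KD, and the next at 7 and 8 and at 8 and 8. In Ino80KD the Sox1 bin therefore carried the label of the next bin, and in control that of the bin before. Nkx6-3 and Klf1, factors of the gut and of red blood cells, were A.1.1 in every library.

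The α- and β-defensins, antimicrobial peptides made in clusters on this chromosome, were in B in all 6 libraries for all 53 members. In Brg1KD 12 of them, from Defb40 to Defb3, were apart towards B and none towards A, and in Ino80KD none was apart either way. All 12 share the single region chr8:18950001-19400000, which was B.1.2 in both controls and both Ino80KD libraries and B.2.1 in both Brg1KD libraries. They are therefore 1 segment and not 12 observations. The median over the 53 members was 0, as over all genes of the chromosome. The region held no loop anchor in any list.

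Of 19 carboxylesterases, enzymes that cleave esters of lipids and drugs mainly in liver and gut, 3 were apart towards B in Brg1KD and 1 in Ino80KD, where 5.38% and 2.11% of all genes of the chromosome were. Ces1a and Ces1b, which share the region of Irx6 and Mmp2, went from 4 in both controls to 3 in both Brg1KD libraries and stayed at 4 in Ino80KD. Ces4a lies at the edge of the cluster. Its bin was A.1.1 in both controls, 4 and 3 in Brg1KD and 3 and 4 in Ino80KD, a loss of 4.5 classes in each. Its neighbour Ces3b stood at 3 and 3 in control, 4 and 3 in Brg1KD and 3 and 4 in Ino80KD. In both knockdowns the Ces4a bin therefore carried the label of the Ces3b bin, which it did not in control. Limma did not call it in Ino80KD (adjusted p = 0.0759), and the knockdowns share the control libraries here.

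The 17 genes over 500 kb long lay mostly in B, 14 of them in all 6 libraries. At their midpoints 4 were apart towards B in Brg1KD and none towards A, where 5.38% and 1.54% of all genes of the chromosome were, with a median shift of -0.5 where the median over all genes of the chromosome was 0. This contrast chose the chromosome, and whether their place in B goes with the count was not tested. In Ino80KD none was apart and the median was 0. Psd3 (an exchange factor of the ARF6 GTPase) was 3 in both controls and both Ino80KD libraries and 2 in both Brg1KD libraries. Nrg1 (a ligand of ErbB receptors) stood at 3 and 2 in control, 1 and 1 in Brg1KD, and 3 and 1 in Ino80KD. Cdh13 (T-cadherin) had 4 and 4, 3 and 3, and 4 and 3, and 10 of the 25 bins along its body were apart towards B in Brg1KD and 6 in Ino80KD. Pard3 (a polarity protein) had 5 and 5, 4 and 4, and 4 and 5.

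Of 16 signalling genes, 8 cadherins and 7 matrix genes, 1 each was apart towards B in Brg1KD (Nrg1, Cdh13 and Mmp2) and none in Ino80KD. With 5.38% and 2.11% of all genes apart towards B, lists of this size do not stand apart from that share by 1 gene. The counts of the lists are not separate. Mmp2 shares the region chr8:92650001-93100000 with Irx6, Ces1a and Ces1b, and Nrg1 and Cdh13 also count among the genes over 500 kb. Fgfr1 (a receptor of fibroblast growth factors) was A.1.1 and Vegfc (a growth factor of lymph vessels) B.1.1 in all 6 libraries. Mmp2 stood at 5 and 4 in control, 3 and 3 in Brg1KD, and 4 and 5 in Ino80KD. As a check of the cell type by place alone, 10 of 10 stem cell marker genes, on all autosomes, lay in A in all 6 libraries and 3 of 5 fibroblast genes did. Of all 20375 autosomal genes 13812 did, so the check says little about the cell type.

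The 3 lists held similar numbers and lengths of loops on chromosome 8. Each group has 1 deposited list, recorded with replicate 2 and named as merged, which was taken as pooled over both libraries, so loops have no replicates. There were 2.16 loops per Mb in control, 2.19 in Brg1KD and 2.07 in Ino80KD, against 2.49, 2.54 and 2.31 on the other autosomes, with medians of 255, 260 and 250 kb. Both anchors lay in A in 52.6%, 50.5% and 53.1% of them and both in B in 24.3%, 29.1% and 25.8%, by the labels of the same group. The Brg1KD labels took part in the choice of the chromosome, so these shares are descriptions. Shares by control labels alone are not given. A gene start lay in an anchor of 11%, 9.45% and 12.3%.

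About as many control loops were listed again in the knockdowns on chromosome 8 as elsewhere. With identical anchors of 10 kb, 134 of 272 control loops (49.3%, exact 95% binomial interval 43.2 to 55.4) were in the Brg1KD list and 138 (50.7%, 44.6 to 56.8) in the Ino80KD list. On the other autosomes these shares were 45.5% (44.2 to 46.8) and 46.2% (44.9 to 47.5). With both anchors within 20 kb the shares rose to 78.7% (73.3 to 83.4) and 77.9% (72.5 to 82.7), against 79.6% and 77.5% elsewhere. The intervals overlap and cover counting error only. Control loops with an anchor in a bin apart towards B in Brg1KD were listed again in 44.8% (31.7 to 58.5) of 58, against 50.5% (43.6 to 57.4) of the other 214, and within 20 kb in 81.0% and 78.0%. A difference between loops at shifted and other bins was not detectable at these numbers. Identical in all 3 lists were 98 loops, with a median of 210 kb, and 98, 113 and 94 were in 1 list only.

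**Figure D5:**
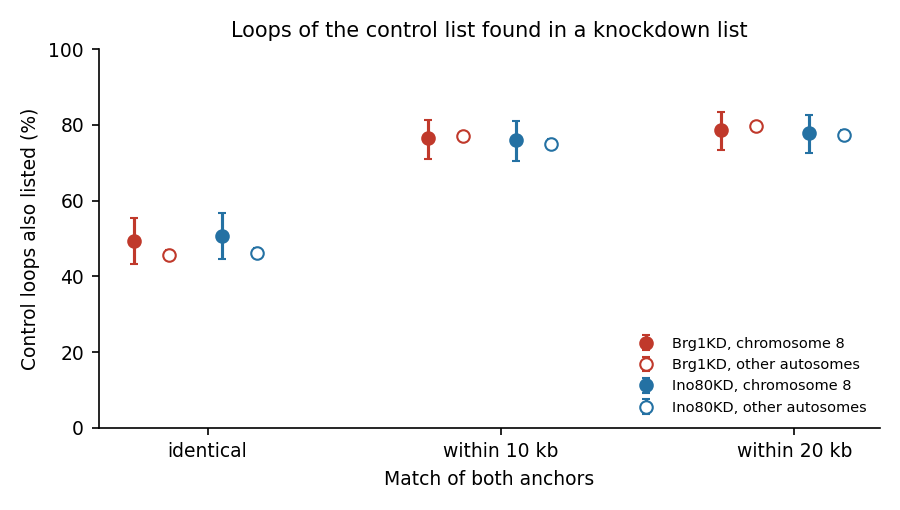
Points give the percentage of control loops found in a knockdown list, on chromosome 8 (filled) and on the other autosomes (open), by how closely both anchors had to match; bars are exact 95% binomial intervals. The shares on chromosome 8 rise from 49.3% to 78.7% in Brg1KD and from 50.7% to 77.9% in Ino80KD.

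Several loops at named genes differed between the lists even within 20 kb. A loop of 1080 kb from the divergent start of Col4a1 and Col4a2, which encode chains of basement membrane collagen, to the start of Sox1 was in the control and Ino80KD lists. A loop of 920 kb from the start of Rab20, a small GTPase of endosomes, to Sox1 was in the same 2 lists. Brg1KD had neither within 20 kb, while a Sox1 loop of 170 kb was in all 3 lists within 10 kb. The Sox1 promoter is the GC-rich window with 3 GC boxes printed above. Irs2, the other GC-rich window, had a loop of 430 kb in Brg1KD alone. Whether promoter sequence goes with the presence of a loop was not tested.

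Sall1, a zinc finger factor of stem cells and kidney, had a loop of 540 kb in control alone. Irx3, an Iroquois homeobox factor, had a loop of 320 or 330 kb in Ino80KD and control and none within 20 kb in Brg1KD. Its longer loop of 550 or 560 kb, whose far anchor overlaps Irx5, was in all 3 lists within 10 kb. Nfix, a nuclear factor I gene, had a loop of 900 kb, at the listed start inside its gene, in Ino80KD alone. Inpp4b, a phosphoinositide phosphatase gene, had 1 of 460 kb in Brg1KD alone. Zfhx3, a homeodomain and zinc finger factor, had a loop of 80 kb identical in all 3 lists and 1 of 200 or 210 kb in both knockdowns without a match in control. Cdh15, M-cadherin, had a loop of 260 or 270 kb in control and Brg1KD and none in Ino80KD. Ces4a, whose bin was A.1.1 in control and in B in both knockdowns, had a loop of 120 kb in Brg1KD alone. The midpoint bins of Irs2, Nfix, Sall1, Irx3 and Inpp4b were apart in neither knockdown. The threshold of the loop caller is not given, so how near to it a missing loop lay is unknown.

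The longest loops showed both patterns. A loop of 1650 kb between 43320001 and 44980000 was in both knockdown lists and had no match in control, and its anchors were in A in every library. A loop of 1280 kb from 34180001 to 35470000, which begins in the Saraf region, was in control and Ino80KD. A loop of 1340 kb in control matched 1 of 1350 kb in Brg1KD within 10 kb and none in Ino80KD, at anchors that were B.2.1 and B.2.2 in all 6 libraries. Brg1KD alone listed loops of 1130 and 1090 kb, and Ino80KD alone 1 of 1280 kb from the starts of Abce1 (a ribosome recycling factor) and Anapc10 (a subunit of the anaphase-promoting complex).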

How the data were processed

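The authors deposited, per library, subcompartment segments with a score per segment, its class rank in 8 equal steps; relative to each library, with no depth given. They deposited other values, the anchor positions of loops, as 1 list a group, recorded with replicate 2. Per the submitters' processing notes, BWA, SAMtools, Juicer 2.0, HOMER and bedtools were used on mm10, with no roles. The callers and thresholds are not given in the sources used here. Depth is unknown, so no interval was given for ranks.

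Here segments were cut into 50 kb bins, scores turned into ranks, and bins labelled in all 6 libraries kept. Ranks were fitted with limma 3.58.1 in R 4.3.3 (lmFit on the 3 groups, all libraries, eBayes, Benjamini-Hochberg over 47717 bins, 0.05). The fit was tested on simulated data, with true steps of 2 classes and noise drawn for each bin on its own. Steps of 1 class or less, which most bins apart towards B against control made, were not simulated. Limma missed most of the true steps and called unchanged bins. A common variance found nearly all of these steps of 2 classes and still called unchanged bins. So counts of bins apart are given first. Rounding error in the fit was set to 0. Other steps used Python 3.11.15. Genes were placed by midpoint with RefSeq GRCm38.p6, the assembly named mm10, of which 1041 of 1043 on the chromosome could be placed and 725 had a start in the promoter table.

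The replicate number is the batch per the labels, so it pairs the libraries; their deviations from the group means correlated over all autosomes with r = 0.0984 (Brg1KD and control), 0.102 (Ino80KD and control) and 0.0885 (Brg1KD and Ino80KD). The fit reported has no batch term, and the alternatives are in the closing section.

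The members and lists were chosen with earlier results of these data known. Named were the regions with the largest summed shift against control (10 towards B and 5 towards A in Brg1KD, 6 and 4 in Ino80KD) with up to 4 genes each, list genes in bins apart with up to 2 unmoved members a list, loops at starts of list genes, and the 5 longest of each list. That promoters were printed only for loops that differ within 20 kb and lie outside other genes (which left out Col4a1, Col4a2 and Inpp4b) was chosen after the values were seen, as were the loops at Aadat and beside it, Smarca5 and Ces3b.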

Additional observations from a re-analysis of the deposited data

Results flagged for a closer look

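The limma fit of Brg1KD against Ino80KD called bins at several named genes and regions. These were named for their shifts against control in the same libraries, and the Brg1KD libraries also chose the chromosome, so the calls are descriptions and no independent test. Defb40, Defb37, Defb38, Defb39, Defb12, Defb34, Defb14, Defb4, Defb6, Defb46, Defb5 and Defb3 each had an adjusted p of 9.78e-08, 1 class lower in both Brg1KD libraries. They share 1 region of 9 called bins and are 1 observation. Ces1a and Ces1b (adjusted p = 9.78e-08 by limma) share the Mmp2 region, in which 5 bins were called, and Psd3 had the same value. This p is that of any bin with a step of 1 class and no spread within groups, and is not calibrated. Bins were also called in the regions of Sh3rf1 (7), Cldn23 (8), chr8:28300001-28800000 (4) and chr8:63450001-63700000 (5), and in those of Zfp868 (7, higher in Brg1KD), Slc25a4 (3, higher in Brg1KD) and Frg1 (1, higher in Ino80KD).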

How the results depend on the processing

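The mean shift of the chromosome kept its direction under the alternatives run. With ranks centred on the mean of each library it was -0.0931 in Brg1KD and -0.00301 in Ino80KD. Leaving out 1 library gave -0.203 to -0.153 in Brg1KD, -0.119 to -0.0421 in Ino80KD and -0.136 to -0.059 between the knockdowns. The share in A differed from control by -5.15 to -2.05 percentage points in Brg1KD and by -3.91 to -0.814 in Ino80KD, the smallest without control replicate 1. Pairing by batch leaves the mean shifts unchanged by construction, as each batch holds 1 library of every group. With batch as a replicate block limma called 164, 77 and 123 bins of the chromosome (Brg1KD, Ino80KD and direct), beside 144, 69 and 106 without it. With a common variance it called 86, 17 and 20, of which 70.9%, 58.8% and 55% were towards B, beside 93.1%, 87.0% and 84.0% in the fit reported. No step of 1 class was called with a common variance, so these shares cover larger steps only. With only the 4 libraries compared limma called 127 in Ino80KD and 184 between the knockdowns. Leaving out a library gave 210 to 344 in Brg1KD, 127 to 278 in Ino80KD and 184 to 270 between the knockdowns, more in each case. Without Ino80KD replicate 2 the Ino80KD calls split 115 towards B to 113 towards A. A gap of at least 2 classes left 27, 8 and 11 bins apart, of which 66.7%, 37.5% and 54.5% were towards B. Loop sharing rose to 76.5% (within 10 kb) and 78.7% (within 20 kb) in Brg1KD and to 76.1% and 77.9% in Ino80KD. Of loops of 200 kb or longer there were 168, 166 and 159. Of 100 alternatives for 16 results, 67 stayed within the spread or within 1.5 times the count. Some of these, such as the paired mean shifts, could not differ from the main result, so the 67 does not measure robustness. The causes were not tested.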
